A study of Mus musculus with 6 samples.

Results

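Connexins are the proteins of gap junctions, and the 8 genes described here are those of the connexin family that were listed for the epithelium of the developing mouse lacrimal gland, namely Gja1, Gja4, Gja5, Gjb1, Gjb2, Gjb5, Gjb6 and Gjc1. They were taken by gene symbol from count tables that hold 23420 genes, and all 8 were present, beside 9 other connexin genes used here. RNA was read from epithelial buds of the lacrimal gland at E14.5, isolated by laser capture from frozen embryos of a mixed background, in 3 control and 3 Pea3 TKO samples. The control group is given as Le-Cre in the labels, with titles that call it WT, and the study also names Le-Cre animals heterozygous for the Pea3, Erm and Er81 alleles among its controls in general. The Pea3 TKO group was Le-cre, Pea3-/-, Ermfl/fl, Er81fl/fl, so that the Cre transgene was common to both groups. Etv4 (Pea3), Etv5 (Erm) and Etv1 (Er81) encode the ETS transcription factors that FGF signaling turns on in this bud. Le-Cre is active in the conjunctival epithelium as well as in the gland, and Pea3 is absent from the whole embryo, whereas Erm and Er81 are deleted only in Cre-expressing cells. The comparison asks which connexin transcripts differed when all 3 factors were removed.

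Each connexin crosses the membrane of a cell, and 6 connexins form a hemichannel that docks with that of a neighbouring cell to make a channel for ions and small molecules. Family members fall into classes by sequence, the main ones being alpha (Gja), beta (Gjb) and gamma (Gjc), and channels of the alpha and the beta class generally do not dock with each other. Gja1 (Cx43) is the most widely used connexin and is found in most epithelia and in mesenchyme. Gjb2 (Cx26), Gjb6 (Cx30) and Gjb5 (Cx31.1) are connexins of the epidermis and other stratified epithelia, Gjb1 (Cx32) is that of hepatocytes, secretory acini and Schwann cells, Gjc1 (Cx45) is used in early embryonic tissue and smooth muscle, and Gja4 (Cx37) and Gja5 (Cx40) are known for endothelium.

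Total counts lay between 14194775 and 17860140 per sample, so that 3 counts corresponded to 0.168 to 0.2113 CPM, the reads of a gene per 1e6 reads counted in its sample, and these limits cover counting error only. Values are given as CPM after normalization by the trimmed mean of M values (TMM), and differences as log2 fold changes of Pea3 TKO against control from the quasi-likelihood test of edgeR, with p adjusted over all 13087 genes that passed its filter on low counts. The targeted genes were low in every sample labelled Pea3 TKO. Etv5 lay at 961, 1010 and 1200 CPM in the controls and at 88.2, 152 and 177 CPM in Pea3 TKO, Etv4 averaged 151 and 19.5 CPM, and Etv1 averaged 31.8 and 9.52 CPM. All 3 control samples and Pea3 TKO replicate 3 held Y-linked RNA (Ddx3y at 46.4 to 81.9 CPM), whereas Pea3 TKO replicates 1 and 2 held Xist (106.4 and 32.51 CPM) and almost no Ddx3y (0.06 and 0.14 CPM). Embryo sex therefore moved in part with genotype, and its part in the results was tested only through the alternatives given beside them. Nothing in the sources says whether the samples came from separate embryos, so the p-values measure the spread between these samples.

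The upstream sequences of the members that the comparison turns on are shown first, because Gjb2 and Gjb6 are neighbours on chromosome 14 that both rose, and Gja1 is the member with the highest level and a difference near 0. Each line holds the 250 bases before the RefSeq start of the gene (GRCm38.p6), 5′ to 3′ on the strand of the gene, with capitals at every match, on either strand, to GGAA (the ETS core), GGGCGG (a GC box), TATAAA or TGANTCA (an AP-1 site). The reverse complements, such as TTCC and CCGCCC, are in capitals too. The Gjb2 window is chr14:57104703-57104952 on the minus strand, the Gjb6 window is chr14:57133612-57133861 on the minus strand, and the Gja1 window is chr10:56377050-56377299 on the plus strand.
Gjb2: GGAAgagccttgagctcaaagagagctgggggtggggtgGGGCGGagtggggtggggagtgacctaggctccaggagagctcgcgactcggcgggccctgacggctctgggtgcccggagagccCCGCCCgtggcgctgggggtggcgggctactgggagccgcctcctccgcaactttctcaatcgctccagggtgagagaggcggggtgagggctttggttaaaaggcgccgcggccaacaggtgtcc
Gjb6: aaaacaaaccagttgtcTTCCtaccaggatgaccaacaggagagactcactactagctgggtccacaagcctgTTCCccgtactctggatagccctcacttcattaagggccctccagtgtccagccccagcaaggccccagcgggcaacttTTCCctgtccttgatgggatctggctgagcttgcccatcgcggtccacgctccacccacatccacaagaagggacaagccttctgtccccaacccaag
Gja1: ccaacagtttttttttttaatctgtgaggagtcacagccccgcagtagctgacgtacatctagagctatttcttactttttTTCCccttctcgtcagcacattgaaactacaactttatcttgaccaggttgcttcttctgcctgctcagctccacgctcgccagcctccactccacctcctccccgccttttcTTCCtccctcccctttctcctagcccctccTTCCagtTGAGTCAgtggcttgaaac
In the Gjb2 window 1 GGAA was found, at the far end of the window 250 bases before the start, and the GC boxes began 211 and 126 bases before it. The Gjb6 window held 3 GGAA matches, which began 233, 177 and 98 bases before the start, and no GC box. The Gja1 window held 3 GGAA matches, at 169, 56 and 26 bases, and 1 TGANTCA position at 19 bases, which reads the same on both strands. The longer Pea3-type letters AGGAAG, which contain GGAA, matched once each in the Gjb6 window (234 bases before the start) and in the Gja1 window (57 bases), and not in the Gjb2 window. Such matches are common. Of 32851 RefSeq windows of this length, 93.4% held GGAA, 29.5% AGGAAG, 32.7% GGGCGG, 6.75% TGANTCA and 12.4% TATAAA. Among the 12505 windows of tested genes the shares were 93.0, 27.4, 58.1, 4.27 and 6.32% in the same order. The letters are a description of these windows only. The table of windows matched 7 of the 8 members, with 10 windows in all.

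Of the 8 members, 6 passed the filter on low counts and 2 of these changed, both upward. Gjb2 rose 2.14-fold and Gjb6 rose 3.82-fold in Pea3 TKO. Gja1, Gjc1, Gjb5 and Gja4 did not pass the test, and Gja5 and Gjb1 had too few reads to be tested. Over all tested genes 25.0% were called in either direction, 13.6% upward and 11.3% downward, and 2 calls among 6 genes are too few to set the members apart from that background. The log2 fold changes of the 6 tested members ran from -0.33 to 1.93, and Gjb5 among them passed the filter in only 1 control. In bulk RNA a difference in the number of cells that use a gene and a difference in RNA per cell cannot be told apart.

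**Figure D1:**
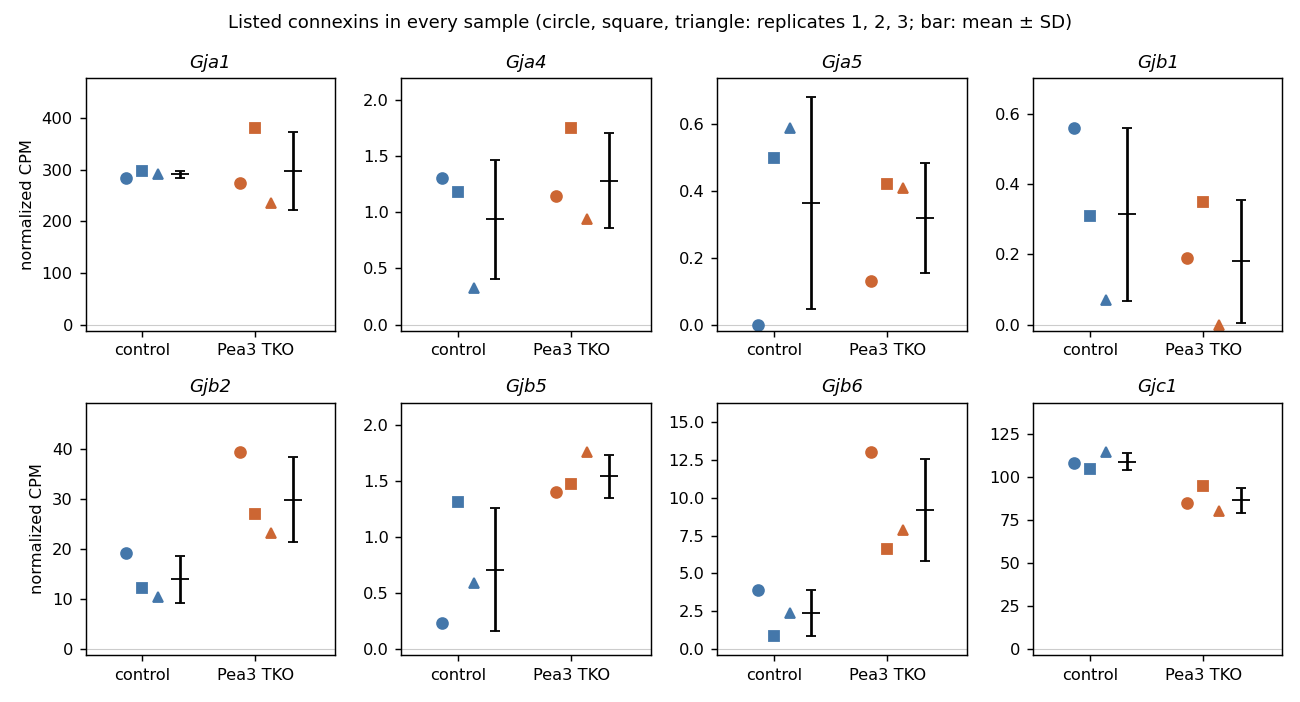
Normalized CPM (vertical axes, linear, each panel with its own range) of the 8 listed connexins in 3 control (blue) and 3 Pea3 TKO samples (orange), with the mean and SD of each group (n = 3) in black. The groups are apart for Gjb2, Gjb6, Gjb5 and Gjc1, and the panels of Gja5 and Gjb1 lie under 1 CPM throughout.

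Gjb2 encodes Cx26, which forms mixed channels with Cx30 and is known to be induced in wounded or growing epidermis. The gene lies at chr14:57098600-57104702 on the minus strand of GRCm38, as 1 annotated transcript. It was read at 340, 195 and 160 counts in control replicates 1 to 3 and at 619, 386 and 393 counts in Pea3 TKO replicates 1 to 3. After normalization these were 19.17, 12.15 and 10.40 CPM against 39.31, 26.99 and 23.08 CPM. Every Pea3 TKO sample lay above every control, with control replicate 1 the highest control and Pea3 TKO replicate 1 the highest sample of all. The log2 fold change was 1.10 (SE 0.29, 95% interval 0.45 to 1.75, edgeR adjusted p = 0.0226). The call was lost without control replicate 2 (1.01, adjusted p = 0.0833), without control replicate 3 (0.92, 0.0779), without Pea3 TKO replicate 1 (0.85, 0.0901) and with Y-linked expression as a covariate (0.75, 0.334), while the direction held in all of these edgeR fits. Among the 4 samples with Y-linked RNA alone, which sets 3 controls against 1 Pea3 TKO sample, the log2 fold change was 0.74 (edgeR adjusted p = 0.324).

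Gjb6 encodes Cx30, the usual partner of Cx26 in the cochlea and the upper epidermis. It lies 18.6 kb from Gjb2 at chr14:57123303-57133611 on the same strand. Its counts were 69, 14 and 37 in the controls and 205, 95 and 134 in Pea3 TKO. The normalized values were 3.89, 0.87 and 2.41 CPM against 13.02, 6.64 and 7.87 CPM. The groups did not overlap, although the lowest Pea3 TKO value and the highest control value were closer to each other than the ends of either group. The log2 fold change was 1.93 (SE 0.55, 95% interval 0.71 to 3.16, edgeR adjusted p = 0.0293). Without control replicate 1 the log2 fold change was 2.48 and the call held. The call was lost without control replicate 2 (1.54, edgeR adjusted p = 0.0654), without control replicate 3 (1.94, 0.0783), without Pea3 TKO replicate 1 (1.60, 0.115), with Y-linked expression as a covariate (1.77, 0.231) and among the samples with Y-linked RNA alone (1.73, 0.275).

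The pair could also be set against each other within a sample, where no scaling enters. For every 100 reads on Gjb2 the controls held 7.42 to 23.4 reads on Gjb6 and Pea3 TKO held 24.7 to 34.2. The log2 ratio of Gjb6 to Gjb2 was -2.29, -3.75 and -2.10 in the controls and -1.59, -2.02 and -1.55 in Pea3 TKO. The difference of 0.99 had an exact two-sided permutation p of 0.1, which is the smallest p that 3 samples against 3 can give. Control replicate 2, with 14 reads on Gjb6, set much of this difference, which was 0.48 without it. Chromosome 14 also holds Gja3 in the same cluster of 99.2 kb, and this lens connexin did not pass the test (log2 fold change -0.38, edgeR adjusted p = 0.619).

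Gjb5 encodes Cx31.1, a connexin of skin and other stratified epithelia. It lies at chr4:127354809-127358181 on the minus strand. Gja4 lies on the same strand, and the stretch that holds both genes measures 46.8 kb. Gjb5 was near the filter, which 1 control and all 3 Pea3 TKO samples passed. It was read at 4, 21 and 9 counts in the controls and at 22, 21 and 30 counts in Pea3 TKO. In normalized values this was 0.23, 1.31 and 0.59 CPM against 1.40, 1.47 and 1.76 CPM. The lowest Pea3 TKO sample lay just above the highest control. The log2 fold change of 1.12 had a 95% interval from -0.65 to 2.90 (edgeR adjusted p = 0.337), so no difference was detectable at this depth. Non-overlapping groups were found for 4 of the 6 tested members, against 43.9% of all tested genes.

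Gja1 encodes Cx43 and spans chr10:56377330-56402513 on the plus strand. It was read at 5025, 4785 and 4489 counts in the controls and at 4329, 5460 and 4029 counts in Pea3 TKO. The normalized values were 283.3, 298.2 and 291.9 CPM in the controls, which lay close together. In Pea3 TKO they were 274.9, 381.8 and 236.6 CPM, with replicate 2 above and the other two below every control. The log2 fold change was 0.03 (SE 0.17, 95% interval -0.34 to 0.40, edgeR adjusted p = 0.912), so the interval left out a change as large as that of Gjb2 in either direction. The sign of this small value turned without Pea3 TKO replicate 2 (-0.18), with Y-linked expression as a covariate (-0.32) and among the samples with Y-linked RNA alone (-0.29), and Gja1 was called under none of the 16 alternatives.

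Gjc1 encodes Cx45 and lies at chr11:102799579-102819700 on the minus strand. Its counts were 1912, 1672 and 1758 in the controls and 1335, 1349 and 1364 in Pea3 TKO. These were 107.8, 104.2 and 114.3 CPM against 84.78, 94.33 and 80.11 CPM. Each Pea3 TKO value was lower than the lowest control, and the spread within each group was small. The log2 fold change was -0.33 (SE 0.12, 95% interval -0.60 to -0.06), with an unadjusted p of 0.0202 and an edgeR adjusted p of 0.0699 that missed the threshold. Its sign was negative under all 16 alternatives, with log2 fold changes from -0.45 to -0.28 and adjusted p from 0.0561 to 0.207.

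The connexins known for endothelium were at the edge of detection. Gja4, at chr4:127311421-127314039 on the minus strand, was read at 23, 19 and 5 counts in the controls and at 18, 25 and 16 counts in Pea3 TKO. This was 1.30, 1.18 and 0.33 CPM against 1.14, 1.75 and 0.94 CPM, and the groups overlapped. The log2 fold change of 0.44 had a 95% interval from -1.27 to 2.15 (edgeR adjusted p = 0.717). Gja5 on chromosome 3 was read at 0, 8 and 9 counts in the controls and at 2, 6 and 7 counts in Pea3 TKO. No sample passed the filter for Gja5, and a fit without the filter gave a log2 fold change of -0.17 (edgeR adjusted p = 0.958). The annotated span of Gja5 overlaps that of Gpr89 on the other strand, and since the strand setting of the counting is not given in the sources used here, its few reads are uncertain. Of the endothelial markers, Tie1 and Emcn were at 0 in all 6 samples, Cdh5 reached 0.06 CPM and Cldn5 reached 0.31 CPM in 1 sample each and were at 0 in the others, and 3 of 10 markers passed the filter. Kdr was at 1.40, 2.38 and 0 CPM in Pea3 TKO and at 0 in the controls, Tek reached 3.44 CPM in 1 control and 4.89 CPM in 1 Pea3 TKO sample, and Pecam1 reached at most 3.19 CPM. Flt1, which passed the filter only through Pea3 TKO, averaged 0.038 CPM in the controls and 20.4 CPM in Pea3 TKO. Their sum lay at 27.77 to 35.18 CPM in the controls and 26.93 to 53.28 CPM in Pea3 TKO, most of it from Egfl7 in the controls.

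Gjb1, the X-linked Cx32 gene, was read at 10, 5 and 1 counts in the controls and at 3, 5 and 0 counts in Pea3 TKO. No sample passed the filter. The 0 in Pea3 TKO replicate 3 allows up to 0.1742 CPM. Without the filter the log2 fold change was -0.79 (edgeR adjusted p = 0.775), and no difference was detectable at this depth. Cx32 is the connexin of mature secretory acini. Its transcript was close to the limit of the data in the E14.5 bud of both groups, and the reason was not tested.

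Between genes, levels were compared per length, as CPM per kb of the union of annotated exons. In the controls Gja1 stood at 28.4 ± 0.73 CPM per kb (SD, n = 3), Gjc1 at 21.7 ± 1.03, Gjb2 at 5.78 ± 1.93 and Gjb6 at 0.894 ± 0.564. Gja4 (0.555 ± 0.315), Gjb5 (0.41 ± 0.321), Gjb1 (0.184 ± 0.146) and Gja5 (0.0629 ± 0.055) followed in that order. The ranges of Gja1, Gjc1 and Gjb2 did not overlap with each other, whereas each gene from Gjb6 downward overlapped with the next. In Pea3 TKO the levels were 29.0 ± 7.33 for Gja1, 17.3 ± 1.45 for Gjc1, 12.4 ± 3.52 for Gjb2 and 3.43 ± 1.26 for Gjb6. Gjb2 reached 16.3 CPM per kb in Pea3 TKO replicate 1 and so overlapped with Gjc1, whose lowest sample stood at 16.0, and Gjb6 no longer overlapped with Gjb5 (0.896 ± 0.112) or Gja4 (0.758 ± 0.25). The order of Gja1 and Gjc1 also held with the length of the longest transcript, which put Gja1 at 74.9 and Gjc1 at 31.9 CPM per kb in the controls.

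The sum over the 17 connexin genes used here was 59.33 to 64.29 CPM per kb in the controls and 55.06 to 76.79 CPM per kb in Pea3 TKO, and the groups overlapped. Gja1 made up 43.49, 45.22 and 47.97% of the sum in the controls and 38.49, 48.47 and 41.90% in Pea3 TKO, and its share overlapped too. Gjc1 made up 33.92, 32.39 and 38.51% in the controls and 24.33, 24.55 and 29.08% in Pea3 TKO, so that its share was lower in every Pea3 TKO sample. Gjb2 took 12.54, 7.86 and 7.29% in the controls and 23.46, 14.61 and 17.42% in Pea3 TKO, and Gjb6 took 1.44 ± 0.894% and 5.19 ± 1.88% (SD, n = 3). The beta members together (Gjb1, Gjb2, Gjb5 and Gjb6) took 11.6 ± 3.42% in the controls and 25.2 ± 6.30% in Pea3 TKO. The shares of Gjb2, Gjb6 and Gjc1 did not overlap between the groups, nor did their CPM. In CPM the groups did not overlap for 43.9% of all tested genes. The difference of Gjc1 in CPM was not called (edgeR adjusted p = 0.0699). Shares of the same sum depend on each other, so a larger Gjb2 share by itself lowers that of Gjc1. These shares depend on the length used, above all for Gja1, whose 8 annotated transcripts cover 10257 bases together and 3889 bases at most singly. With the longest transcript the share of Gja1 was 62.69% in the controls and 61.41% in Pea3 TKO, and that of the beta members was 6.30 ± 2.02% and 14.6 ± 4.32%.

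**Figure D2:**
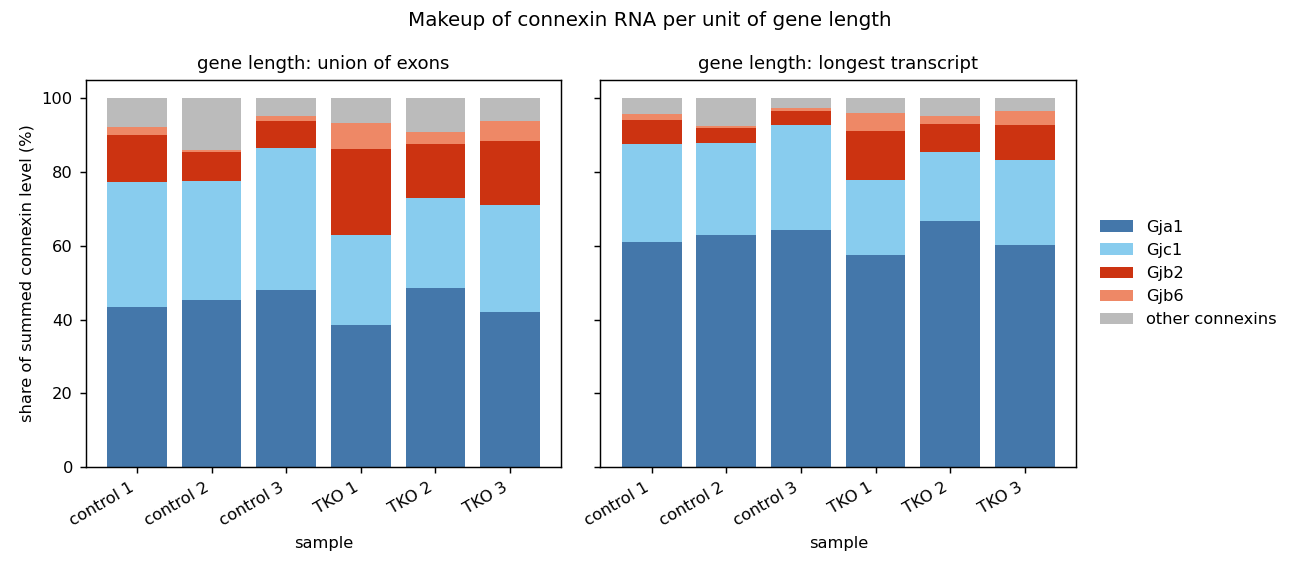
Share of the summed connexin level (%, stacked bars from 0 to 100) in each of the 6 samples, as CPM per kb of the union of exons on the left and of the longest transcript on the right. Gja1 and Gjc1 (blue) fill most of every bar, and Gjb2 and Gjb6 (red and orange) together fill more of every Pea3 TKO bar than of any control bar, while grey marks all other connexins used here.

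Within a sample, Gjb2 was also set against Gja1, the most abundant member. For every 100 reads on Gja1 there were 3.58 to 6.78 reads on Gjb2 in the controls and 7.08 to 14.3 in Pea3 TKO. The log2 ratio was -3.88, -4.61 and -4.81 in the controls and -2.81, -3.82 and -3.36 in Pea3 TKO, a difference of 1.11. The exact two-sided permutation p was 0.1, the smallest this design allows. The highest control and the lowest Pea3 TKO sample were nearly equal.

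Among the 9 other connexins used here, 2 passed the filter, namely Gja3 and Gje1, and neither was called in edgeR, DESeq2 or limma voom. Taken by class, 2 of the 3 tested beta members rose (Gjb2 and Gjb6, but not Gjb5). Of the alpha and gamma connexins used here 4 were tested (Gja1, Gja3, Gja4 and Gjc1), and 0 changed in edgeR, DESeq2 or limma voom, with 1 of them (Gjc1) under an unadjusted 0.05 in edgeR. The share called over all tested genes was 25.0% (13.6% upward and 11.3% downward), and 3 or 4 genes per class are too few to set against it. No test compared the classes.

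**Figure D3:**
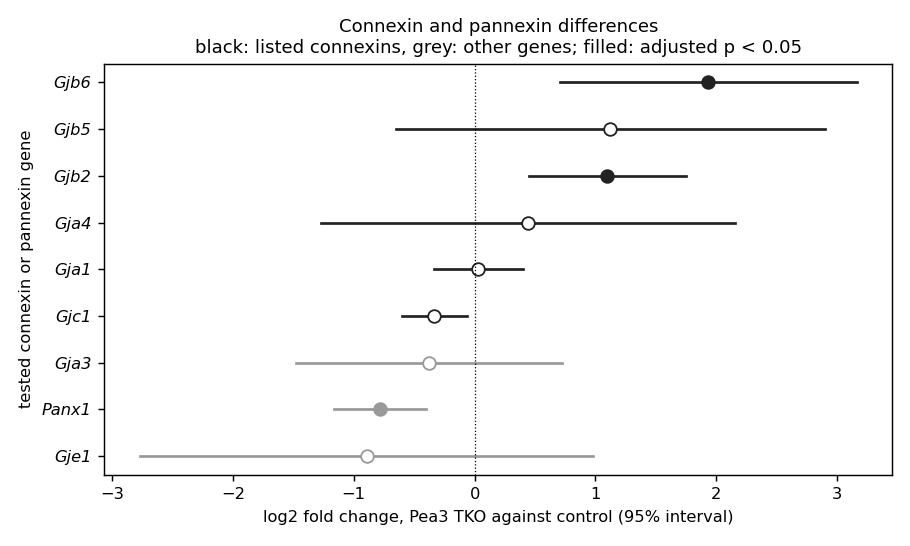
Log2 fold change of Pea3 TKO against control (horizontal axis) with its 95% interval for each tested connexin used here and Panx1, with the listed connexins in black, the other genes in grey and filled circles where the adjusted p was under 0.05. The filled circles of Gjb2 and Gjb6 lie to the right of 0, that of Panx1 lies to the left, and the intervals of Gjb5 and Gja4 span 0 widely.

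Stratified epithelium markers were higher in Pea3 TKO beside Gjb2 and Gjb6. Of 12 tested markers of that list 11 rose, Krt15 and Krt5 among them (log2 fold changes 3.44 and 3.05) and 1 of them, Dsg3, tested only through Pea3 TKO. The tested marker that was not called was Trp63 (log2 fold change -0.04, edgeR adjusted p = 0.921). The summed level of the list was 1088 to 2270 CPM in the controls and 6342 to 8535 CPM in Pea3 TKO. Of the conjunctival markers Krt19, Krt7 and Krt4 rose as well, while Krt13 and Muc4 passed the filter only through the Pea3 TKO samples, and the sum of all 5 was 381.9, 48.42 and 23.86 CPM in the controls and 1920, 1242 and 1122 CPM in Pea3 TKO. Control replicate 1 and Pea3 TKO replicate 1 were the highest of their groups in these sums, as they were for Gjb2 and Gjb6. Gjb2 and the conjunctival sum each lay apart by group, so only the order of the 3 samples within a group was free. Within both groups Gjb2 followed the same order as the conjunctival sum. Gjb6 did not, since replicate 3 lay above replicate 2 in both groups, against the order of that sum. Gja1 and Gjc1 did not follow this order either. Of the lacrimal bud markers, 6 of 8 fell and Pax6 rose, and their sum was 3173 to 3420 CPM in the controls and 917.8 to 1013 CPM in Pea3 TKO. Over all tested genes 13.6% were called upward and 11.3% downward. The part of surface epithelium in the Gjb2 and Gjb6 differences was not tested.

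**Figure D4:**
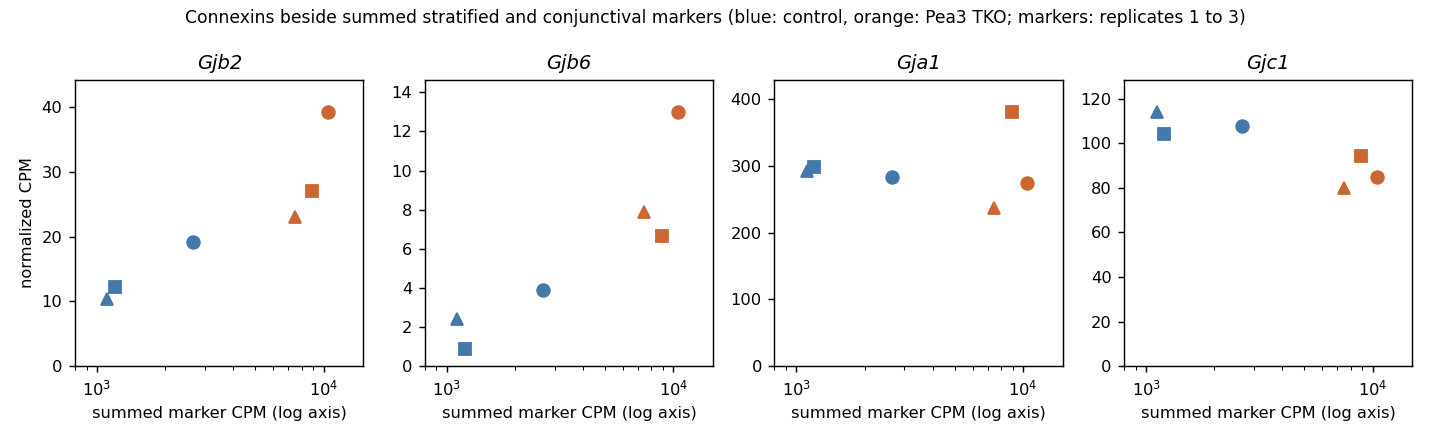
Normalized CPM of Gjb2, Gjb6, Gja1 and Gjc1 (vertical axes, linear) against the summed CPM of the stratified and conjunctival markers (horizontal log axis) in 3 control (blue) and 3 Pea3 TKO samples (orange), where circle, square and triangle are replicates 1, 2 and 3. Marker sums run from 1112 to 2652 CPM in the controls and from 7463 to 10450 CPM in Pea3 TKO, and the samples highest in the markers within each group are also highest in Gjb2 and Gjb6.

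Markers of further cell types were read beside the members known from those cells. Of the mural markers, 3 of 5 tested rose (Acta2, Tagln and Rgs5, the last tested only through Pea3 TKO), while Cspg4 and Pdgfrb were not called. The mural markers summed to 16.91 to 20.86 CPM in the controls and 73.84 to 97.67 CPM in Pea3 TKO, whereas Gjc1, which smooth muscle uses, was lower in every Pea3 TKO sample. Mesenchyme markers summed to 105.7, 109.6 and 197.9 CPM in the controls and to 506.5, 663.1 and 99.2 CPM in Pea3 TKO. Of these 10 markers 2 were called upward, Lum and Dcn, and the groups overlapped for all 10. Lum and Dcn were at 2.06 and 2.41 CPM in Pea3 TKO replicate 3, below 8.39 and 4.42 CPM in control replicate 3. Gja1, which mesenchyme also uses, was highest in the Pea3 TKO sample that was highest in these markers. In Pea3 TKO replicate 1, the next highest in these markers, Gja1 was at 274.9 CPM and so below every control. The part of these cell types in the values of Gja1 and Gjc1 was not tested. Simple epithelium markers rose for 5 of 6, with sums of 2850 to 3631 and 5102 to 6069 CPM, and Epcam, a general epithelial marker, was at 1408 ± 88.2 CPM in the controls and 1256 ± 73.4 CPM in Pea3 TKO (edgeR adjusted p = 0.311). Glial, blood and macrophage markers were called in 1 of 4, 0 of 2 and 0 of 3 tested genes, the 1 being Erbb3, which fell. Beside all these counts, 25.0% of all tested genes were called, 13.6% upward and 11.3% downward.

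Genes that bind, sort or degrade connexins were read from a list of 33, of which 32 were tested. Of these 8 rose, 7 fell and 17 were not called, beside the 25.0% called over all genes, and the median log2 fold change was 0.21. Cdh1 (E-cadherin), whose junctions precede gap junctions between epithelial cells, rose from 498.8 ± 63.2 to 1066 ± 38.3 CPM (n = 3 each). Dsp (desmoplakin) rose by a log2 fold change of 1.44, Tjp3 by 1.38, Ezr (ezrin) by 0.60 and Tjp1, the ZO-1 scaffold that binds the tail of Cx43, by 0.67. Cnst (consortin), a receptor that carries connexins from the Golgi to the surface, fell from 94.2 ± 7.65 to 40.8 ± 13.0 CPM (edgeR adjusted p = 0.0034). Cav1 (caveolin) fell by 1.53 and Wwp1, a ubiquitin ligase reported to act on Cx43, fell by 0.87 on the log2 scale. Gja1 itself was not called beside these changes in its partners. With Y-linked expression as a covariate 5 of the 32 were called, and 4 among the samples with Y-linked RNA alone.

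**Figure D5:**
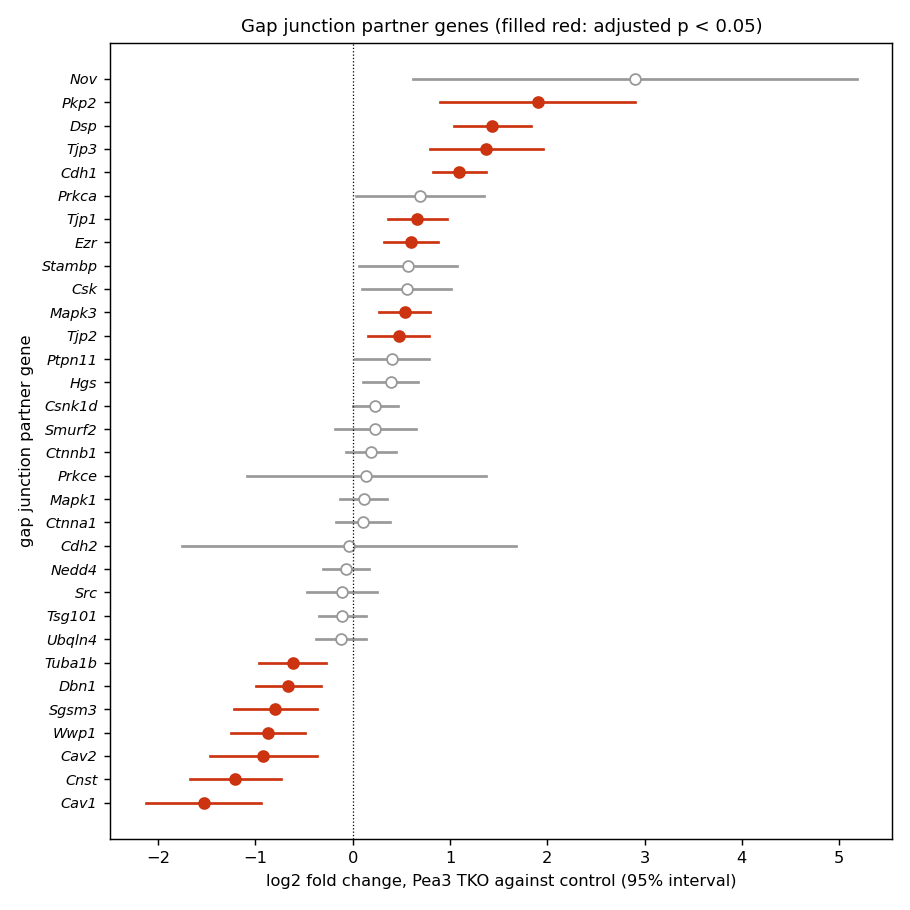
Log2 fold change of Pea3 TKO against control (horizontal axis) with its 95% interval for the 32 tested genes that bind, sort or degrade connexins, in red with filled circles where the adjusted p was under 0.05 and in grey otherwise. Called genes lie on both sides of 0, with Dsp, Tjp3 and Cdh1 to the right and Cav1 and Cnst to the left.

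Transcription factors known to act on connexin genes in other tissues were read from a list of 18, of which 14 were tested. Of these 4 rose, 4 fell and 6 were not called, beside the 25.0% called over all genes. Jun and Fos, the parts of AP-1, rose by log2 fold changes of 1.83 and 2.45, and Grhl3 and Egr2 rose by 1.89 and 3.03. Sox10, which acts on Gjb1 in glia, fell by 2.43 (edgeR adjusted p = 0.000223), Irx3 fell by 0.99 and Tfap2c fell by 0.45 on the log2 scale. Tbx2 fell by 3.16 on that scale but was tested only through the controls. It passed the filter in 3 controls and 1 Pea3 TKO sample. Trp63, the master regulator of stratified epithelium, had a log2 fold change of -0.04 (edgeR adjusted p = 0.921). With Y-linked expression as a covariate 4 of the 14 were called, and 3 among the samples with Y-linked RNA alone.

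The genes most like each tested member were taken by Pearson r of log2(CPM + 1) over the 6 samples, among tested genes with a mean of at least 5 CPM, as a description in which the points share their libraries and genotype. Card14 and Tmem9b were most like Gjb2 (r = 0.999 each), and both also rose in Pea3 TKO (log2 fold changes 2.89 and 0.48). Syap1 and Rab13 were most like Gjb6 (0.995 and 0.993), and neither was called. Gjc1 was most like Ap4m1 and Ube2v2 (0.995 and 0.994), of which Ap4m1 fell by 0.94 on the log2 scale. Gja1 was most like Sgsm1 and Dnm2 (0.968 and 0.954), Gja4 most like Mocs3 and 2700089E24Rik (0.985 and 0.977) and Gjb5 most like Eif3h and Gpx1 (0.997 and 0.992). An r above 0.95 was found for 445 of 10786 genes with Gjb2, 176 with Gjb6, 137 with Gjc1 and 3 with Gja1, and for 28 of 10787 genes with Gjb5 and 10 with Gja4.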

How the data were processed

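RNA from laser-captured E14.5 lacrimal gland buds of 3 control and 3 Pea3 TKO samples was amplified with the Nugen Ovation kit and sequenced. The authors deposited raw read counts for each gene symbol in separate tables of the 6 samples, with no normalization. The submitters' processing notes name bcl2fastq 2.17, STAR 2.5.2b, featureCounts 1.5.0-p3, DESeq and the build mm10, while annotation and strand setting are not given in the sources used here. No row lacked a gene name.

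Genes were filtered with filterByExpr (13087 of 23420 kept, about 0.628 CPM), normalized by TMM and tested in edgeR 4.0.16 (R 4.3.3) with the quasi-likelihood F test, genotype as its single term and p adjusted by Benjamini-Hochberg, with a threshold of 0.05. The common biological coefficient of variation was 0.259, and no 2 samples of a group agreed within sampling noise. Ratios within a sample were tested by exact permutation (scipy 1.17.1), after adding 0.5 counts to each gene. Lengths and positions come from GENCODE M21 (GRCm38), matched by symbol, and upstream windows from RefSeq. The script was tested on simulated data.

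The members, marker lists and tests were chosen with earlier results of these data known. Named were all members, other connexins and pannexins where tested, partners and regulators with an adjusted p under 0.05 (up to 8 per list by smallest p), up to 3 markers per list by mean CPM, and the 2 genes most like each tested member. Markers at 0 and genes below the filter were named after their values were seen. Some tested genes outside these rules were named too, such as Rgs5, Dsg3, Krt13, Muc4, Pecam1 and Trp63. Alternatives were other normalizations and filters, DESeq2 1.42.0, limma voom 3.58.1, the replicate number as a block, a covariate for Y-linked expression, a threshold of 0.01, another gene length and leaving out each sample. The fit on samples with Y-linked RNA was added after the data were seen. Some connexin genes are not reported here.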

Additional observations from a re-analysis of the deposited data

How the results depend on the processing

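Other normalizations and filters, DESeq2 and limma voom called Gjb2 and Gjb6 as before and no other member. With the covariate for Y-linked expression, 778 genes, 0 listed connexins, 5 partners and 4 regulators were called, and log2 fold changes were 0.75 for Gjb2, 1.77 for Gjb6, -0.32 for Gja1 and -0.016 for Gja4. Among samples with Y-linked RNA alone, an alternative chosen after seeing the data that assumes the lone Pea3 TKO sample to vary like the controls, the counts were 595, 0, 4 and 3, and Gjb2, Gjb6 and Gja1 had 0.74, 1.73 and -0.29. At a threshold of 0.01 the counts were 1426, 0, 8 and 5. Leaving out 1 sample gave 1948 to 3344 genes, 0 to 2 listed connexins and log2 fold changes of 0.85 to 1.40 for Gjb2, 1.54 to 2.48 for Gjb6 and -0.18 to 0.17 for Gja1. The longest transcript as gene length put the share of Gja1 at 62.69% in control and 61.41% in Pea3 TKO. The cause of the other changes was not tested. A fit with a replicate block called 3191 genes, in which Gjb2 (1.11, edgeR adjusted p = 0.00572) and Gjb6 (2.08, 0.0123) stayed called. Deviations of samples with the same number correlated across genes at 0.144, -0.06 and 0.05, and those with different numbers at -0.133 to 0.119. With 3 samples per group, whose deviations depend on each other, this cannot settle whether the numbers pair the samples. Depth limits Gja4, Gja5, Gjb1 and Gjb5, for which a difference missed here is not shown to be absent.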

Other observations

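The lens shares its origin in the surface ectoderm with the gland. Gje1 had a log2 fold change of -0.89 (edgeR adjusted p = 0.48), was not called and turned to 0.28 without control replicate 2. The annotated span of Gje1 overlaps that of Nmbr on the other strand, so its reads are uncertain in the way given for Gja5. Of 7 tested lens markers 1 was called, namely Bfsp2, beside the 25.0% called over all genes. Bfsp2 fell by 2.985 on the log2 scale (edgeR adjusted p = 0.0226) and passed the filter in 3 controls and 1 Pea3 TKO sample. Lens markers summed to 343.7, 988.9 and 152.9 CPM in the controls and 177.1 to 328.5 CPM in Pea3 TKO, with control replicate 2 the highest. Their part in the values of Gja3 and Gje1 was not tested.

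Pannexins form single-membrane channels related to connexins in shape. Panx1 stood at 129.3, 108.5 and 101.9 CPM in the controls and at 50.99, 70.27 and 75.82 CPM in Pea3 TKO, without overlap. It fell by 0.79 on the log2 scale (SE 0.17, edgeR adjusted p = 0.00955) and stayed called when any 1 sample was left out. With the covariate for Y-linked expression its log2 fold change was -0.57 (edgeR adjusted p = 0.222).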
